A study of Mus musculus with 1019 samples.

Results

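Pparg and 7 genes of lipid storage and fatty acid handling (Dgat1, Dgat2, Plin2, Hilpda, Fabp5, Scd2 and Cd36) were followed in regulatory T cells (Tregs) of visceral fat and spleen. They were chosen by name, and are 8 of the 23725 genes in the count table. Transcripts of single cells were counted by inDrops, a droplet method that captures polyadenylated RNA with oligo dT and tags each captured molecule with a unique molecular identifier (UMI). VAT library 2 and VAT library 3 held Tregs from epididymal visceral adipose tissue (VAT), and 1 library held Tregs from spleen, all from male B6 mice aged 20 months with no treatment or genotype named in the labels. Cells of every library were sorted as DAPI- TCRb+ CD4+ CD25+, after collagenase and dispase digestion of VAT and mechanical dissociation of spleen, so tissue and dissociation cannot be told apart in any comparison between them. The labels of the spleen cells disagreed: the source was spleen, whereas the tissue field named spleen together with visceral adipose, and the replicate number differed between the title and the sample type.

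Of 1019 cells, VAT library 2 held 330, spleen held 375 and VAT library 3 held the others. The libraries had 556099, 548770 and 573622 UMIs (VAT library 2, VAT library 3 and spleen), and their cells had 1565, 1611 and 1423 UMIs at the median. No animal is named in the labels, so each library was 1 sample and no test was computed. Levels are given in CPM, a gene's UMIs scaled to a common library total. Intervals are exact 95% intervals for counting error alone, and they are too narrow for genes whose UMIs are gathered in few cells. The VAT libraries shared 2 cell barcodes with each other, VAT library 3 shared 1 with spleen, and VAT library 2 shared none with spleen. Treg genes were present in every library: Foxp3, the defining transcription factor of Tregs, stood at 472.9, 344.4 and 385.3 CPM, and Il2ra, which encodes CD25, at 1104, 1011 and 453 CPM. Counting all UMIs, 38.8%, 31.2% and 34.7% of cells had a Foxp3 UMI. The sort was on CD25, so Il2ra is not separate evidence of identity. Ctla4, Tnfrsf18 and Tnfrsf4 were above spleen in both VAT libraries. Ikzf2 stood at 1.44 (1.25 to 1.66) and 1.14 (0.987 to 1.32) times spleen, so its interval in VAT library 3 included 1. T cell genes were found in every library but were mostly lower in VAT. Cd3d stood at 0.481 and 0.469 times spleen, Cd3g at 0.498 and 0.657, and Cd3e at 0.701 and 0.479. Lck stood at 0.583 and 0.507 times spleen, and Cd4 at 0.964 and 0.609. In the 12-gene adipocyte list 9, 8 and 10 UMIs were found, and 7 of its genes, including the defining genes Adipoq, Plin1 and Cfd, had no UMI in any library. The 22 genes of the macrophage list summed to 246.4, 271.5 and 558 CPM, with Adgre1, Cd14, Mrc1, C1qa, C1qb and C1qc among 8 genes at 0. Cst3 was the 1 measured gene of that list that was higher in VAT (201.4, 215.03 and 80.2 CPM). The other 2 measured genes of that list, Ctss and Cybb, were lower. Endothelial genes had 4, 2 and 31 UMIs, stromal genes 14, 16 and 5, mesothelial genes 17, 20 and 7, and innate lymphoid and mast cell genes 16, 11 and 0. Erythroid genes stood at 1.80, 1.82 and 202.2 CPM, and dendritic cell and MHC class II genes at 66.5, 98.4 and 207.5 CPM. B cell genes had 0, 1 and 1 UMIs, and CD8 and natural killer cell genes 40, 38 and 38. The part of such transcripts in the members' ratios was not tested, beyond leaving out the cells that held them, as given for Plin2, Fabp5 and Pparg.

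PPARγ, the product of Pparg, is a nuclear receptor that binds fatty acids and their derivatives, pairs with a retinoid X receptor on DNA and drives the adipocyte program. It is also known as a factor that Tregs of visceral fat need to accumulate and keep their tissue phenotype. Cells store surplus fatty acids as triglyceride in lipid droplets: carriers such as CD36 and FABP5 bring fatty acids in or bind them, desaturases such as SCD2 modify them, DGAT enzymes esterify them to triglyceride, and PLIN2 and HILPDA sit on the droplet and slow its breakdown.

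Promoter windows of the members were read from the RefSeq promoter table (GRCm38.p6), which had entries for Pparg (3 starts), Hilpda (2 starts), Plin2 and Cd36, 4 of the 8 genes. The windows span 250 bases before a start. They are shown because Pparg, Plin2 and Hilpda were all far higher in VAT whereas Cd36 was at 0 throughout, so their letters can be set side by side. Capitals mark matches on either strand. The motifs are the nuclear receptor element AGGTCA, the hypoxia response core ACGTG with its variant GCGTG, the AP-1 element TGANTCA, the TATA box motif TATAAA and the CCAAT box. A match on the other strand appears as its reverse complement, so that the nuclear receptor element reads TGACCT before Plin2 and Cd36. No 2 matches overlap in the letters shown. The windows are Pparg start 3 at chr6:115421816-115422065 on the plus strand, Plin2 at chr4:86670060-86670309 on the minus strand and Cd36 at chr5:17835897-17836146 on the minus strand. For Hilpda the window before its second start overlaps an exon of its first, so 2 stretches of 30 bases are given, at chr6:29272494-29272523 and chr6:29272573-29272602 on the plus strand. Both stretches were cut around matches and lie downstream of the first Hilpda start. The window before that first start held no match to any of these motifs.
Pparg start 3: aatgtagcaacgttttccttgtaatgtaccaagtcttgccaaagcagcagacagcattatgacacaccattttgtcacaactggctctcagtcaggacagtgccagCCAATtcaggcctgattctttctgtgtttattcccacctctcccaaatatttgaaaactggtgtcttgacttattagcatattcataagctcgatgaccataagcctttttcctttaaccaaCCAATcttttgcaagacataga
Plin2: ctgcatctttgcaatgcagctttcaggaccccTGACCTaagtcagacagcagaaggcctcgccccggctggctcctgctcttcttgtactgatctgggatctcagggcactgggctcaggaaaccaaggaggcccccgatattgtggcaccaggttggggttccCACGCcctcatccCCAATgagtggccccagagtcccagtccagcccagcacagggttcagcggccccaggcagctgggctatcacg
Hilpda site 1: gcagTGAATCAaccgcgagccGCGTGcttt
Hilpda site 2: tggccagcggACGTGccccagggcgagctc
Cd36: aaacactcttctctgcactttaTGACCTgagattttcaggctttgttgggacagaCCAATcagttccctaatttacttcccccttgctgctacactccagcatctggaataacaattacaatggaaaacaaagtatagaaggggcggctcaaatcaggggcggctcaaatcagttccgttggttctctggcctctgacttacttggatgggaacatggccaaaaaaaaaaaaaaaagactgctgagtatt

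AGGTCA occurred near the upstream end of the windows before Plin2 and Cd36. It also occurred before Pparg start 1 (28 to 23 bases) and Pparg start 2 (9 to 4 bases), but not before Pparg start 3. Of all 32851 promoter windows of this length in the table, 14% held AGGTCA. The window before the second Hilpda start was the only one of the 7 with TGANTCA, which 6.75% of all windows held, and it also held ACGTG 43 to 39 bases before the start, present in 16.6% of all windows. GCGTG, present in 28.2% of all windows, occurred before the second Hilpda start, Plin2 and Pparg start 1. CCAAT was found in 33.8% of all windows and stood before Plin2, Cd36 and Pparg starts 2 and 3, and TATAAA, in 12.4% of all windows, stood before Pparg start 2. The direct repeat of AGGTCA spaced by 1 base, the arrangement PPARγ binds with a retinoid X receptor, was in none of the members' windows and in 0.0335% of all windows. GC content was 82.4% before Pparg start 1, 63.6% before start 2 and 40.8% before start 3. Reads from the 3' end cannot assign UMIs to one of these starts.

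Pparg, on chromosome 6 (115360951 to 115490399, plus strand, GRCm38), had 49 UMIs in VAT library 2, 46 in VAT library 3 and 2 in spleen. Scaled to library totals, that was 88.1 CPM (65.2 to 116.5), 83.8 CPM (61.4 to 111.8) and 3.49 CPM (0.422 to 12.6). Both VAT libraries were far above spleen and close to each other, and their intervals did not overlap that of spleen. VAT library 2 was 25.3-fold (6.63 to 214.5) and VAT library 3 was 24.04-fold (6.29 to 204.5) above spleen, and VAT library 3 was 0.951 times VAT library 2 (0.622 to 1.45). The width of these intervals comes from the 2 spleen UMIs. These lay in 1 cell, which had 2330 UMIs in all, 6 of them from Klrg1, a marker of mature tissue Tregs, and none from Il1rl1 or from another member. All spleen cells but 12 lacked a Klrg1 UMI, and among those that lacked one Pparg had 0 UMIs.

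Dgat1, on chromosome 15 (76502015 to 76511953, minus strand), encodes an enzyme of the last step of triglyceride synthesis. It stood at 417 and 377 CPM in VAT libraries 2 and 3, against 24.4 CPM in spleen, where it had 14 UMIs. The ratios were 17.1-fold (9.98 to 31.8) and 15.5-fold (9.01 to 28.8), with no overlap between either VAT library and spleen. Dgat2, on chromosome 7 (99153658 to 99182719, minus strand), encodes the unrelated second enzyme of the same step. It had 10, 7 and 5 UMIs (17.98, 12.8 and 8.72 CPM), and its ratios of 2.06 (0.642 to 7.69) and 1.46 (0.400 to 5.85) have intervals that include 1. The data therefore show the higher VAT level for Dgat1, while for Dgat2 no difference was detectable at this depth. Hsf1, a heat shock factor on the other strand, ends close to the end of Dgat1, and the strand used in counting was not stated. Hsf1 had 33, 31 and 16 UMIs, 2.13-fold and 2.03-fold above spleen, a smaller ratio than that of Dgat1.

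The droplet proteins were high in both VAT libraries. Plin2, on chromosome 4 (86648386 to 86670060, minus strand), encodes a coat protein of droplets in most cell types. It stood at 226.6 and 185.9 CPM in VAT libraries 2 and 3, against 12.2 CPM (7 UMIs) in spleen, ratios of 18.6 (8.75 to 47.1) and 15.2 (7.13 to 38.8). Without the cells that held a UMI of another cell type's list, which left 94 spleen cells, its log2 ratios were 3.41 and 3.05, against 4.12 and 3.84 in all cells. A narrower filter left out only cells with a UMI of a defining marker of another cell type, and kept more cells. Under it the log2 ratios of Plin2 were 4.15 and 3.81. Hilpda, on chromosome 6 (29272488 to 29275446, plus strand), encodes a small droplet protein induced by hypoxia and fatty acids that inhibits adipose triglyceride lipase. It had the most UMIs of the 8 genes, 431 and 393 in the VAT libraries against 31 in spleen (775, 716 and 54.04 CPM), ratios of 14.3 (9.95 to 21.4) and 13.3 (9.19 to 19.8). Hilpda UMIs were gathered in part of the cells: a VAT cell with Hilpda held 3.34 and 3.39 UMIs on average and up to 18 and 17, against 2.21 and up to 4 in spleen.

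Fabp5 and Scd2 went opposite ways. Fabp5, a cytosolic fatty acid carrier on chromosome 3 (10012548 to 10016607, plus strand), had 39, 30 and 14 UMIs (70.1, 54.7 and 24.4 CPM) in VAT library 2, VAT library 3 and spleen. It was 2.87-fold (1.53 to 5.73) and 2.24-fold (1.15 to 4.57) above spleen, and a processed copy of this gene could share its reads. Without the cells that held a UMI of another cell type's list its log2 ratios were 2.87 and 2.16, against 1.49 and 1.14 in all cells. Leaving out only cells with a defining marker of another cell type, the Fabp5 log2 ratio was 1.68 in VAT library 2. Scd2, a stearoyl-CoA desaturase on chromosome 19 (44293674 to 44306864, plus strand), had 6, 14 and 51 UMIs, which is 10.8, 25.5 and 88.9 CPM. It was 8.24-fold (3.54 to 23.5) lower in VAT library 2 and 3.49-fold (1.90 to 6.82) lower in VAT library 3 than in spleen, the 1 member below spleen in both. In spleen its UMIs came from 18 cells, with up to 10 in a cell. Its paralog Scd3 had 20, 20 and 33 UMIs, with ratios of 0.625 (0.340 to 1.12) and 0.634 (0.344 to 1.14), and Scd1, the main desaturase of adipocytes, had 0, 0 and 1. Near-identical stretches of these paralogs could share reads.

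Cd36, a fatty acid receptor and transporter on chromosome 5 (17781690 to 17888801, minus strand), had 0 UMIs in all 3 libraries. A floor of 3 counts is 5.39, 5.47 and 5.23 CPM in these libraries, or 0.909%, 0.955% and 0.800% of their cells. The exact 95% upper limits were 6.63, 6.72 and 6.43 CPM. The Pparg level of spleen (3.49 CPM) lay below these limits, and the Pparg levels of VAT lay far above them. Fabp4, the fatty acid carrier of adipocytes, had 2, 3 and 0 UMIs.

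**Figure D1:**
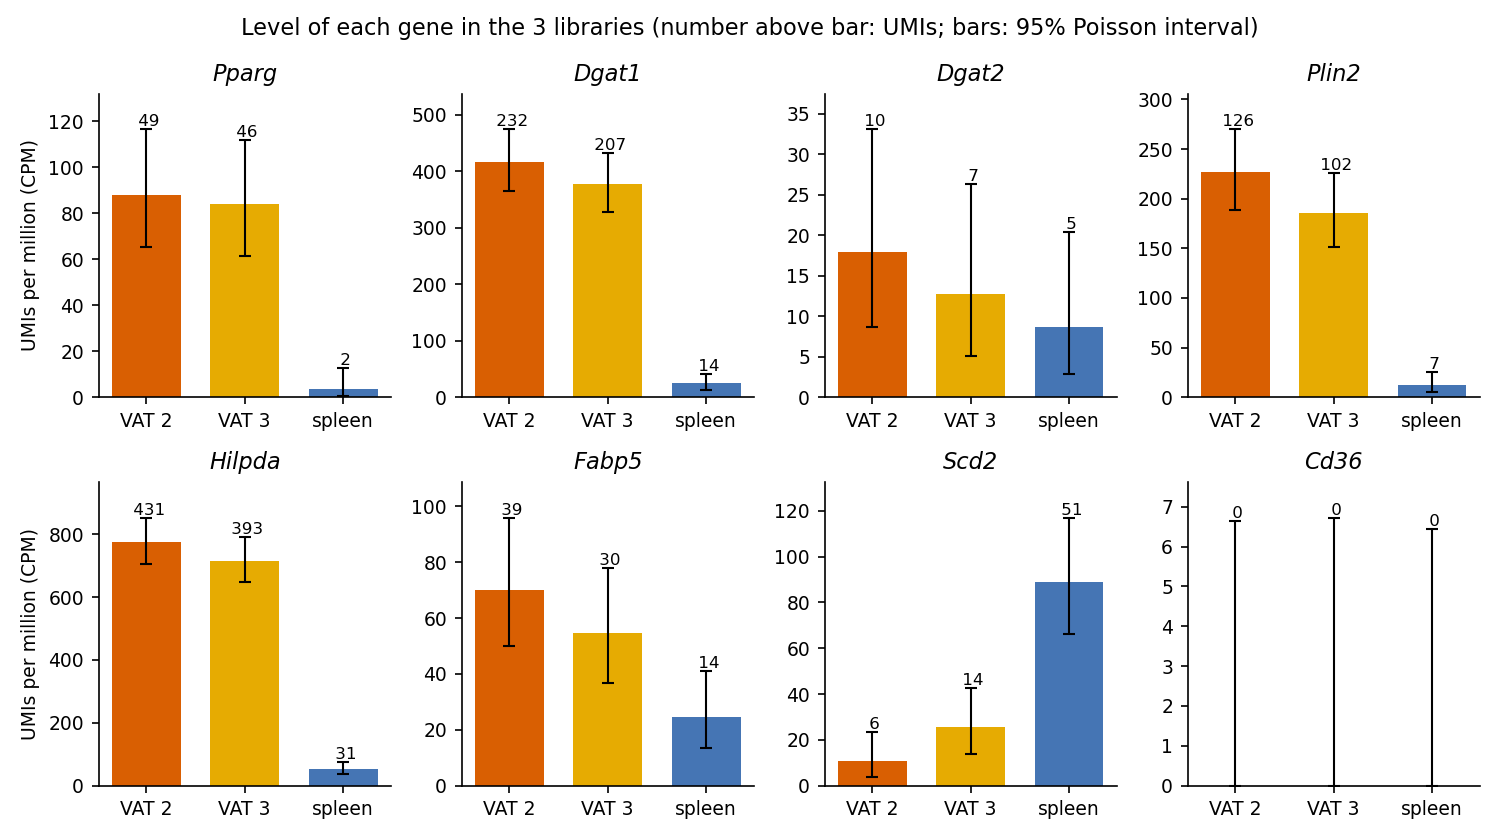
Level of each of the 8 genes in CPM in VAT library 2, VAT library 3 and spleen, with the number of UMIs above each bar and 95% Poisson intervals for counting error, each gene on its own axis. Pparg, Dgat1, Plin2 and Hilpda are high in both VAT libraries and low in spleen, Scd2 is highest in spleen with 51 UMIs, and Cd36 is at 0 in all 3.

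Genes with at least 50 UMIs over the 3 libraries were counted as higher or lower where both VAT libraries were at least 2-fold from spleen. Of the 8 members 6 reached 50 UMIs, and Dgat2 (22 UMIs) and Cd36 (0) did not. Of these 6, 5 were higher, where 10.3% of all 4635 such genes were higher. Scd2 was the 1 lower member, where 4.4% of all such genes were lower. The 5 higher members had 2 to 31 spleen UMIs, so they reached the minimum only through VAT, where they are high. Scd2 reached it through spleen, where it had 51 UMIs. When library totals were taken without ribosomal protein genes, 8.39% of all genes were higher and 7.12% lower, and 4 members were higher and 1 lower, because Fabp5 fell short of 2-fold in VAT library 3 (log2 ratio 0.95). The members were picked for their part in VAT Treg biology and with results of these libraries known, so their share is a description and not a sample of genes. The median log2 ratio of all such genes was 0.04 in VAT library 2 and -0.02 in VAT library 3. With the minimum at 20 UMIs the 7 members that passed had medians of 3.82 and 3.71, against 0.04 and -0.06 over all genes. Between the VAT libraries 1 of the 6 members was 2-fold apart, where 4.34% of all genes were: Scd2 was 2.36 times as high in VAT library 3 as in VAT library 2, with an interval that includes 1 (0.854 to 7.51).

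**Figure D2:**
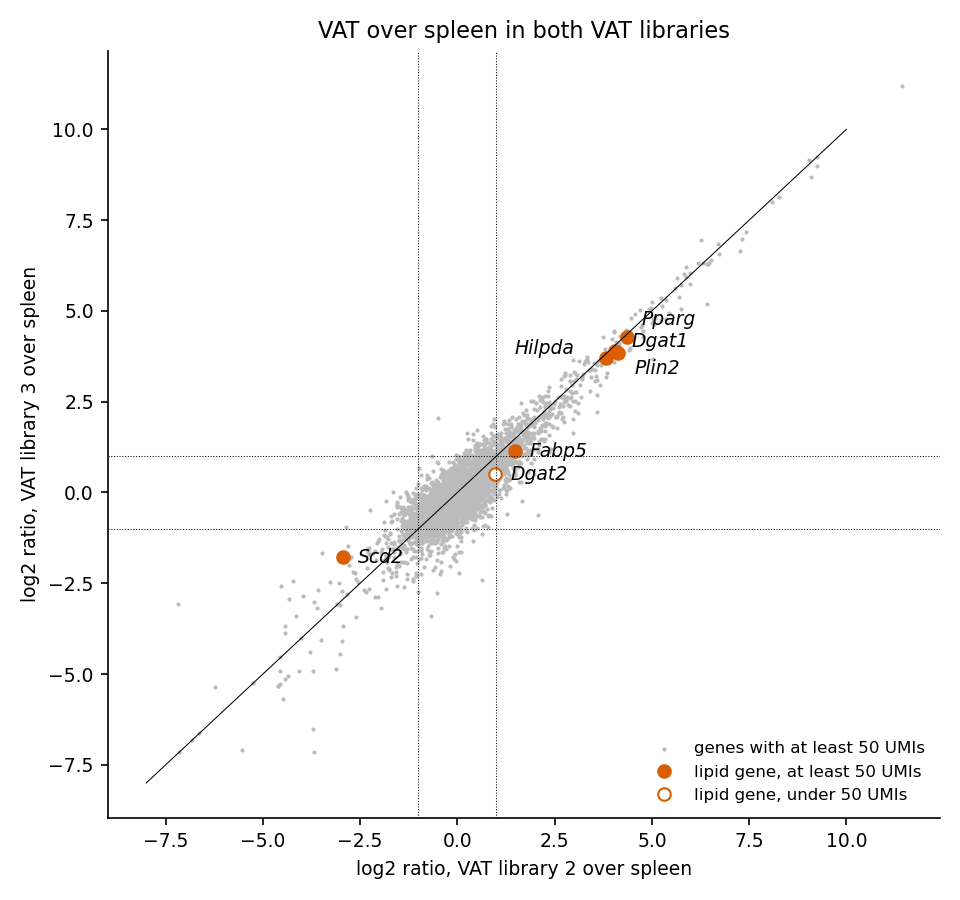
log2 ratio over spleen in VAT library 2 (x axis) and VAT library 3 (y axis) for all genes with at least 50 UMIs in grey and the members in orange (open: under 50 UMIs), with 2-fold limits dotted and the line of equality. Pparg, Dgat1, Plin2 and Hilpda lie close together near the line, Fabp5 lies just past the upper limits, Dgat2 lies inside them and Scd2 lies below the lower ones.

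The genes whose 2 ratios lay nearest to those of Pparg were Gem (165.4, 167.6 and 6.97 CPM in VAT library 2, VAT library 3 and spleen), Egln3 (46.8, 51.02 and 1.74 CPM), Ctsh (86.3, 96.6 and 3.49 CPM), Dusp1 (3253, 3142 and 181.3 CPM) and Ctla2a (1289, 1217 and 71.5 CPM). Likeness was the Euclidean distance between pairs of log2 ratios over these 3 libraries, and ran from 0.15 for Gem to 0.29 for Ctla2a. The counts do not settle which genes are nearest or their order. Pparg had 2 spleen UMIs, and Gem, Egln3 and Ctsh had 4, 1 and 2, so they reached the minimum through VAT. Gem is a small GTPase, Egln3 a prolyl hydroxylase that marks hypoxia-inducible factors for decay, Ctsh a lysosomal protease, Dusp1 a phosphatase of MAP kinases and Ctla2a an inhibitor of cysteine proteases. Dusp1 is an immediate early gene. Genes of the AP-1 and immediate early list moved with the members: they made up 3.24% and 2.99% of all UMIs in the VAT libraries against 0.213% in spleen, and 18 of the 20 measured were higher. Such genes can respond to enzymatic digestion of tissue, and their part in the members' ratios was not tested. Ribosomal protein genes took 16.7% and 18.6% of UMIs in VAT against 28.6% in spleen.

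To compare shares of cells at equal depth, 800 UMIs were drawn from each cell, a depth every cell reached. Pparg was found in 5.45% (3.26 to 8.48) of cells of VAT library 2 and 5.10% (2.94 to 8.14) of VAT library 3, against 0.267% (0.00675 to 1.48) of spleen cells. Without thinning these were 8.79%, 8.92% and 0.267%, that is 29, 28 and 1 cells. Most VAT Tregs therefore had no Pparg UMI, and 14 and 10 of the VAT cells that did had at least 2. The highest count in a cell was 4 in VAT library 2 and 6 in VAT library 3. With the cells of VAT library 2 ordered from few to many UMIs and split into 4 groups, the share with a Pparg UMI before thinning was 8.43%, 6.02%, 10.98% and 9.76%. In VAT library 3 it was 10.1%, 3.80%, 8.97% and 12.8%, so it did not rise steadily with depth in either. The table holds no other cell type that should lack Pparg, so the share that free RNA in droplets gives was not measured.

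In VAT Hilpda was the most widely found, in 28.2% and 27.1% of thinned VAT cells against 3.47% in spleen, followed by Dgat1 in 18.5% and 20.1% against 1.33%. Plin2 was in 12.7% and 8.28% against 1.60%. Shares of these 3 genes in either VAT library lay above the spleen interval. Fabp5 was in 4.24% and 2.87% against 1.60% of cells, with overlapping intervals, so its VAT level was not matched by a detectable difference in the share of cells at 800 UMIs. Without thinning Fabp5 was in 8.79% and 8.28% against 2.93% of cells. Scd2 was in 2 and 3 VAT cells against 15 spleen cells, and Dgat2 in 0.909%, 0.318% and 0.267%. At least 1 of the 8 genes was found in 51.2% (45.7 to 56.7) and 50.6% (44.96 to 56.3) of VAT cells, against 12.3% (9.12 to 16.02) of spleen cells. In VAT library 2, 46 cells had UMIs of 2 of the genes, 6 cells of 3 and 2 cells of 4. In VAT library 3 these were 33, 4 and 1 cells, and in spleen 1 cell had UMIs of 2 of the genes and none had more.

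**Figure D3:**
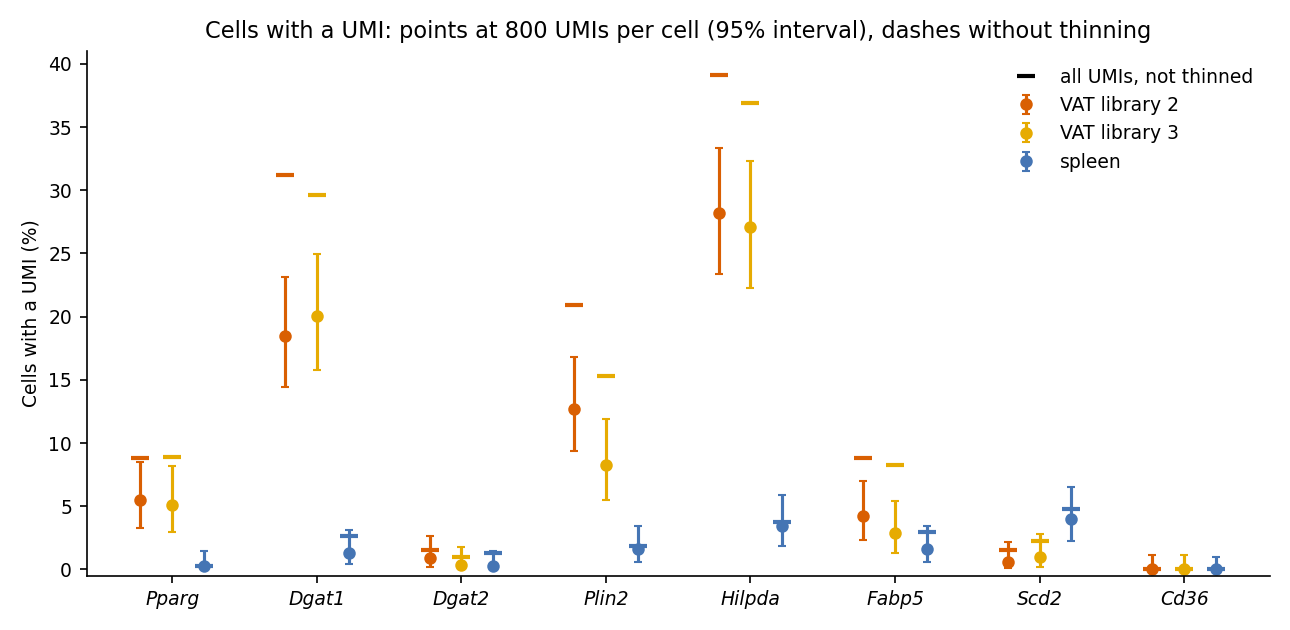
Percent of cells with a UMI of each gene in VAT library 2, VAT library 3 and spleen, as points after thinning to 800 UMIs per cell with exact 95% intervals and as dashes without thinning. Hilpda and Dgat1 reach the most VAT cells, Pparg about 5% of them after thinning, and Scd2 is the gene found in more spleen cells.

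The members' levels were also set against other genes of VAT Tregs. In VAT cells with a Klrg1 UMI Pparg stood at 84.3 and 86.3 CPM, and in VAT cells without one (53 and 34 cells) at 109.98 (50.3 to 208.8) and 59.3 (12.2 to 173.3) CPM. At 800 UMIs, the Pparg share was 6.82% and 6.70% in cells with an Il1rl1 UMI, which encodes the IL-33 receptor ST2, against 3.64% and 3.81% in cells without one. The differences of 3.18 (-2.78 to 7.86) and 2.89 (-3.29 to 7.71) points had intervals that include 0. In cells with a Foxp3 UMI Pparg stood at 70.7 (40.4 to 114.9) and 82.2 (46.02 to 135.6) CPM, and in cells without one at 100.04 (68.9 to 140.5) and 84.6 (57.5 to 120.1) CPM. Hilpda stood at 1021 (894 to 1162) and 718 (600 to 852) CPM in cells with a Foxp3 UMI, against 606 (525 to 696) and 715 (631 to 807) CPM in cells without one. These Hilpda intervals did not overlap in VAT library 2, but they are too narrow for a gene whose UMIs are gathered in part of the cells. In VAT library 3 they overlapped. In the cells with a Foxp3 UMI alone, Dgat1 stood at 499.5 (412 to 601), 455 (362.4 to 564) and 9.87 (1.20 to 35.7) CPM in VAT library 2, VAT library 3 and spleen, where it had 2 UMIs.

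VAT cells with a Pparg UMI were compared with VAT cells without one at equal depth, leaving Pparg out of the counts thinned. In VAT library 2, 29 cells had a Pparg UMI and all others had none, with median depths of 1697 against 1555 UMIs. In VAT library 3, 28 cells had one, with median depths of 1693 UMIs against 1597.5 UMIs in the cells without. Another member was found in 44.8% (26.4 to 64.3) of cells with a Pparg UMI and 48.5% (42.7 to 54.3) of cells without one in VAT library 2. In VAT library 3 it was found in 57.1% (37.2 to 75.5) of cells with a Pparg UMI and 48.6% (42.7 to 54.6) of those without. The differences of -3.68 (-21.0 to 14.8) and 8.54 (-10.4 to 25.9) points had opposite signs and intervals that include 0, so these cell numbers neither show nor exclude a difference of up to about these bounds. At 600 UMIs per cell the difference in VAT library 2 was -23.04 (-36.2 to -4.23) points, which left out 0, while in VAT library 3 it was -4.07 (-20.8 to 15.1) points.

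Dgat1 was found in 13.8% of cells with and 22.6% of cells without a Pparg UMI in VAT library 2, and in 28.6% and 17.8% in VAT library 3. These shares come from a single draw, and whether they depend on it was not tested. Expected counts give mean UMIs and not shares, and did not show a lower level in VAT library 2. There Dgat1 averaged 0.365 UMIs per cell with and 0.336 per cell without a Pparg UMI, and 0.369 and 0.287 in VAT library 3. Hilpda was found in 27.6% and 27.9%, and in 32.1% and 26.2%, in the same order. Plin2 was found in 13.8% and 10.96% in VAT library 2 and in 3.57% and 11.2% in VAT library 3. Fabp5 was in 1 and 2 of the cells with a Pparg UMI. Dgat2, Scd2 and Cd36 were in none of them, which with 29 and 28 cells leaves upper limits of 11.9% and 12.3%. All of the members' differences in share had intervals that include 0. By thinned UMIs in place of cells, Hilpda in VAT library 3 was 1.64-fold (1.03 to 2.51) higher in cells with a Pparg UMI, while in VAT library 2 its ratio was 0.812 (0.435 to 1.40), and all other members with a thinned UMI had ratios whose intervals include 1.

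**Figure D4:**
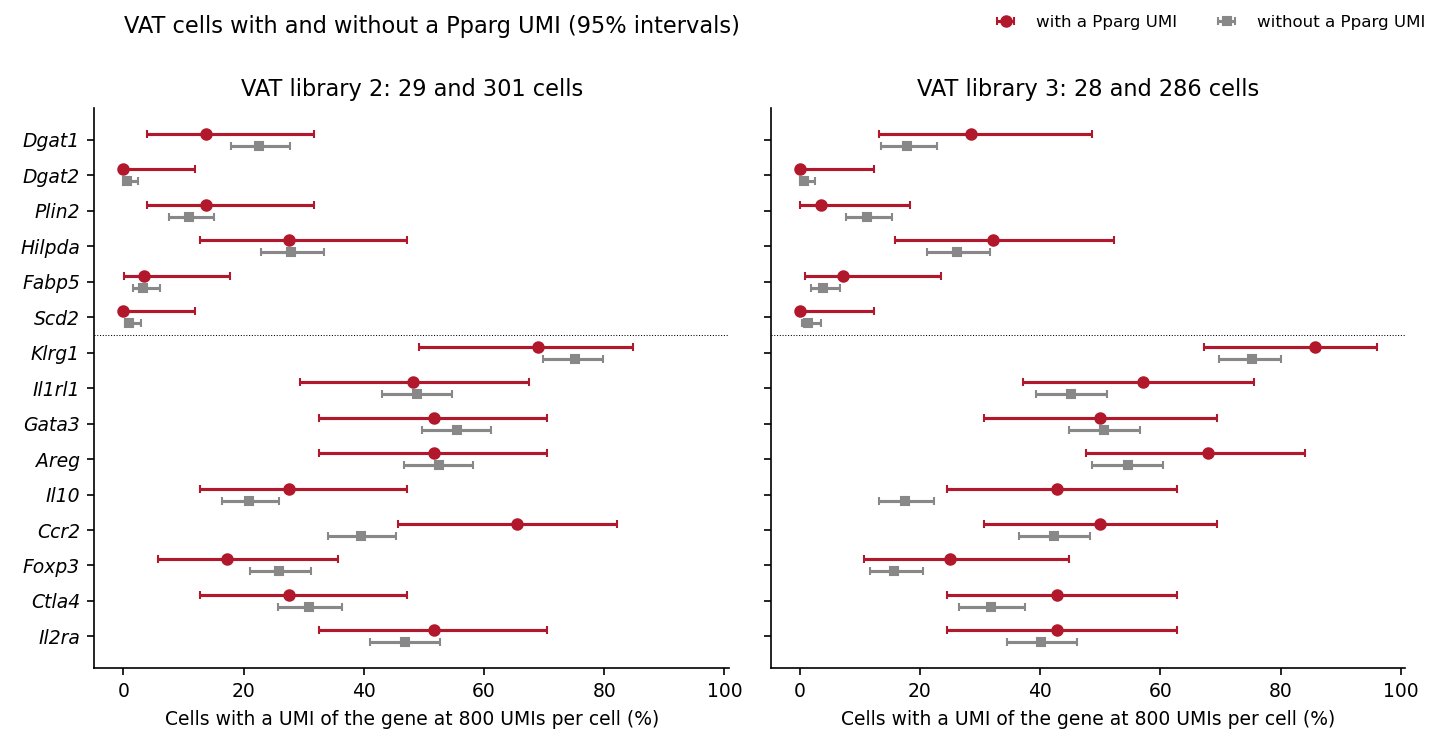
Percent of cells with a UMI of the gene named, at 800 UMIs per cell, in VAT cells with a Pparg UMI (red circles) and without one (grey squares), for VAT library 2 (29 cells with) and VAT library 3 (28 cells with), with exact 95% intervals; members stand above the dotted line and other Treg genes below it. The intervals of both kinds of cell overlap for every member, while Ccr2 in VAT library 2 and Il10 in VAT library 3 stand apart.

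Cells with and without a Pparg UMI were compared by share of cells for 15 genes in both VAT libraries. Of these 30 differences in share, 2 had intervals that left out 0, each in 1 library. Ccr2, a chemokine receptor of tissue-seeking T cells, was found in 65.5% of cells with and 39.5% of cells without a Pparg UMI in VAT library 2, a difference of 25.98 (6.96 to 41.5) points. In VAT library 3 it was found in 14 of the 28 cells with and in 42.3% of cells without a Pparg UMI, a difference of 7.69 (-10.6 to 25.9) points. Il10, the gene of an anti-inflammatory cytokine, was found in 27.6% and 20.9% in VAT library 2 and in 42.9% and 17.5% in VAT library 3, differences of 6.66 (-7.15 to 25.3) and 25.4 (8.33 to 43.9) points. The difference between the libraries was not tested. With expected counts in place of a draw, Ccr2 averaged 0.961 UMIs per cell with and 0.620 per cell without a Pparg UMI in VAT library 2, but 0.613 and 0.733 in VAT library 3, the opposite direction. Il10 averaged 0.847 and 0.667 in VAT library 2 and 1.27 and 0.530 in VAT library 3. Klrg1 was found in 68.97% and 75.1%, and in 85.7% and 75.2%. UMIs of the AP-1 and immediate early list averaged 31.4 per cell with and 25.9 per cell without a Pparg UMI in VAT library 2, and 26.5 and 23.8 in VAT library 3. The ratios for this list were 1.21 (1.13 to 1.30) and 1.11 (1.03 to 1.20). Split by other genes, they were 1.13 and 0.945 for Klrg1, and 1.11 and 0.999 for Foxp3. They were 1.09 and 1.05 for Dgat1, and 1.07 and 1.01 for Hilpda. They were 1.02 and 1.12 for Plin2, and 1.01 and 1.02 for Il1rl1. A raised level of this list was therefore not seen by Pparg status alone.

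Across all genes with at least 50 thinned UMIs in VAT, 1.34% of 1638 were at least 2-fold higher in cells with a Pparg UMI in both libraries and 2.14% were at least 2-fold lower. With expected counts in place of a draw, these shares were 0.313% and 0.752% of 1595 genes. Of the members, Dgat1, Plin2 and Hilpda reached 50 thinned UMIs, and none of these 3 was at least 2-fold apart in both libraries. The 10 highest (Uhrf1bp1l, Reep3, Ypel2, Ppp1r10, Gabarapl2, Selt, Cox5a, Ly9, Uqcrc2 and 1110007C09Rik) had 4 to 9 UMIs in the cells with a Pparg UMI of either library. The 5 lowest, among them Dock8, Tpst2, Fis1 and Hbp1, had none there. Another random draw of the same cells kept 2 of these 10 and 1 of these 5 in its own lists, and expected counts in place of a draw kept 4 of 10 and 3 of 5. The order of single genes in so few cells was thus set largely by the draw, and no gene is singled out.

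Among other pairs of members, 1 pair had a difference that left out 0 in both VAT libraries, in a single draw. Expected counts were not computed for this pair. Hilpda was found in 35.9% of VAT library 2 cells with a Dgat1 UMI and 24.7% of those without one, a difference of 11.3 (0.763 to 22.2) points. In VAT library 3 it was found in 37.6% and 23.1%, a difference of 14.6 (3.61 to 25.9) points. These were 2 of 12 differences by Dgat1 status, and none of the 12 by Hilpda status or the 12 by Plin2 status left out 0. Split the other way, Dgat1 was found in 27.9% of cells with and 18.9% of cells without a Hilpda UMI in VAT library 2 (difference 9.0, -0.215 to 18.6 points) and in 18.97% and 18.2% in VAT library 3. Plin2 was found in 18.6% and 11.4%, and in 12.1% and 8.59%, of cells with and without a Hilpda UMI. Counting any other member, cells with a Hilpda UMI differed from cells without by 14.1 (3.14 to 24.7) points in VAT library 2 and 3.88 (-6.75 to 14.8) points in VAT library 3, and cells with a Dgat1 UMI by 6.78 (-4.70 to 18.2) and 16.04 (4.05 to 27.6) points.

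The wider pathways were described with lists of known genes, each gene entering with at least 20 UMIs. The lists include members, which were chosen with results of these libraries known, so list counts are not independent of that choice. Over all 7429 genes at that minimum 10.5% were higher and 6.45% lower in both VAT libraries. Among the droplet coat and assembly genes 3 of 9 measured were higher and none lower: Plin2, Hilpda and Pcyt1a. Plin2 and Hilpda are members, and Pcyt1a was the only higher gene that is not. Pcyt1a, the enzyme that limits phosphatidylcholine synthesis for droplet surfaces, had 92 and 72 UMIs in the VAT libraries against 3 in spleen, ratios of 31.6 (10.5 to 156.2) and 25.1 (8.25 to 124.5). Seipin (Bscl2, 60, 99 and 37 UMIs), Aup1 (82, 74 and 83), Rab18 (45, 60 and 28) and Hsd17b11 (53, 31 and 20), all proteins of the droplet surface or its assembly, did not reach 2-fold in both. Plin3, the perilipin of nascent droplets, had 27, 14 and 28 UMIs, and Plin1, Plin4, Cidea, Cideb and Cidec, which coat or fuse lipid droplets, had none.

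Of 13 genes measured in the triglyceride synthesis list, 1 was higher (Dgat1, a member) and 1 lower, close to the shares of all genes. The medians were 0.61 and 0.37 on the log2 scale, against 0.04 and -0.06 over all genes at that minimum. The lower gene was Lpin2, a phosphatidate phosphatase, with 4, 6 and 16 UMIs (log2 ratios of -1.83 and -1.28). Acsl5 (43, 48 and 46 UMIs), Soat2 (44, 33 and 61), Agpat3 (27, 17 and 46) and Lpin1 (36, 15 and 15) were not 2-fold apart in both. Among genes of lipolysis and lipophagy 1 of 8 was higher: Tfeb, a regulator of lysosome genes, with 15, 17 and 3 UMIs. Pnpla2, which encodes adipose triglyceride lipase, had 31, 26 and 19 UMIs, ratios of 1.68 (0.921 to 3.15) and 1.43 (0.762 to 2.73). Fabp5, a member, was the only higher gene of the 4 measured for fatty acid uptake and binding.

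Of 19 fatty acid oxidation genes measured, 0 were higher and 0 lower by 2-fold in both VAT libraries, and the medians were 0.20 and 0.30 on the log2 scale. Ucp2, a carrier of the inner mitochondrial membrane, stood at 485.5, 694 and 638 CPM. Hadh had 84, 66 and 54 UMIs, and Hadhb 56, 57 and 32. Cpt1a, which admits fatty acids to mitochondria, had 46, 33 and 19 UMIs, ratios of 2.50 (1.43 to 4.51) and 1.82 (1.004 to 3.38). Among fatty acid synthesis and desaturation genes 2 of 14 were higher, Acss2 (15, 16 and 4 UMIs) and Insig2 (17, 16 and 5), and 1 was lower, the member Scd2. Fasn, the fatty acid synthase, had 34, 30 and 52 UMIs, Acly 70, 74 and 51, and Elovl1 37, 50 and 22. Elovl5, an elongase of polyunsaturated fatty acids, stood at 233.8, 286.1 and 165.6 CPM.

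Cholesterol synthesis and efflux genes had 4 of 14 higher and none lower, with medians of 0.46 and 1.02. Among the higher genes were Cyp51 (41, 42 and 11 UMIs) and Hmgcs1 (27, 39 and 13), enzymes of sterol synthesis, and Stard4 (12, 16 and 5), a sterol carrier. Idi1 (22, 37 and 15), Fdft1 (20, 32 and 13) and Msmo1 (19, 31 and 21) were not 2-fold apart in both.

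Among PPARγ partners and coregulators 1 of 11 measured was higher and 1 lower. The lower gene was Ncoa1, a coactivator, with 17, 16 and 38 UMIs. Ncor1 (350.7, 348.1 and 242.3 CPM), Cebpb (233.8, 176.8 and 94.1 CPM), Ncoa3 (192.4, 131.2 and 120.3 CPM) and Med1 (42, 49 and 34 UMIs) did not pass in both. Of the retinoid X receptors, Rxrb had 22, 26 and 39 UMIs, Rxra had 9, 7 and 2, and Rxrg had none. Hypoxia response genes, a set that includes regulators known to act on Hilpda, had 2 of 15 higher and 1 lower, with medians of 0.15 and 0.17. Egln3 was 26.8-fold (4.41 to 1100) and 29.3-fold (4.84 to 1197) above spleen on a base of 1 spleen UMI. Ndrg1 (83, 84 and 16 UMIs) was 5.35-fold and 5.49-fold above, and Pdk1, a kinase that restrains pyruvate use, was lower with 15, 6 and 33 UMIs. Ldha (471.1, 453.7 and 474.2 CPM), Pgk1 (273.3, 242.4 and 200.5 CPM), Bnip3l (217.6, 198.6 and 202.2 CPM) and Hif1a (66, 82 and 64 UMIs) were within the limits.

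**Figure D5:**
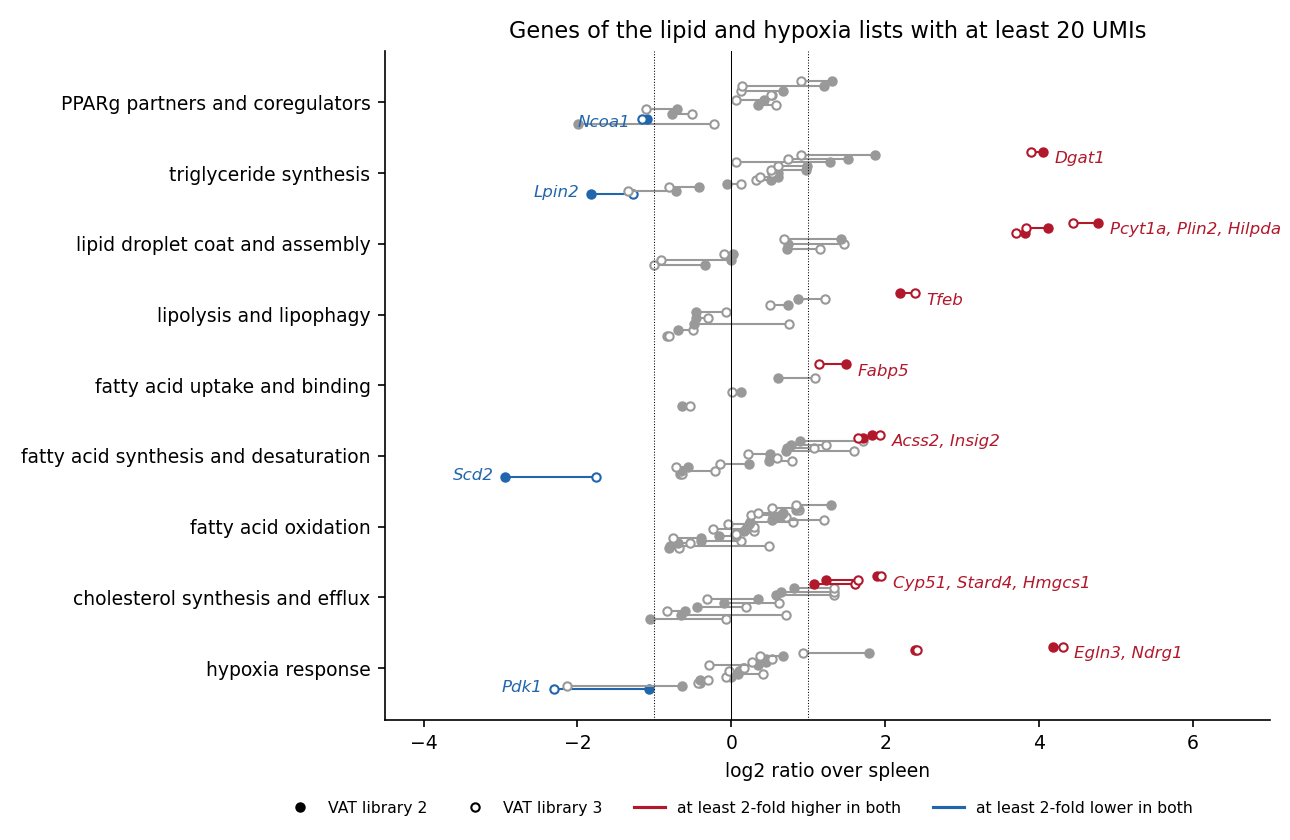
log2 ratio over spleen of each measured gene of 9 lists in VAT library 2 (filled) and VAT library 3 (open), joined by a line, with the 2-fold limits dotted; genes past them in both libraries are red (higher) or blue (lower) and named, and a few list genes that are not reported are left out. In each list most genes are not past a limit in both libraries at once, and Dgat1, Pcyt1a, Plin2, Hilpda and Egln3 lie near a log2 ratio of 4 or above.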

How the data were processed

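The values deposited by the authors are raw UMI counts for each gene symbol in each cell. The submitters' processing notes name TopHat2, SAMtools and the genome build mm10. The annotation, the strand used in counting, the cell filter and any doublet removal are not given in the sources used here, and no doublet caller was run. A deposited table of cell labels was not used.

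Each GEO sample is 1 cell, and cells were grouped into 3 libraries by the labels. UMIs were summed per library and scaled to CPM. log2 ratios add 0.5 to each count, while printed folds do not. Ratios carry exact conditional binomial intervals, levels exact Poisson intervals, and shares Clopper-Pearson intervals (95%). Differences of shares carry Newcombe intervals. These cover counting error only. A gene was called higher or lower when both VAT libraries were at least 2-fold from spleen, with at least 50 UMIs over the libraries (20 for genes of lists). Cells were thinned without replacement to 800 UMIs (seed 1). The calls were run on simulated Poisson counts with folds set in advance. Those counts had no UMIs gathered in cells and no variation between libraries. The error of the calls in these libraries was therefore not measured. The labels name no animal, so no test or count model between tissues was computed.

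The members, lists and rules were chosen with earlier results of these data known. Named genes were the 8 members, every list gene called higher or lower and up to 4 others by most UMIs, the 5 nearest to Pparg, and the 10 highest and 5 lowest in cells with a Pparg UMI. A few genes that this rule names are not reported here, though counts and medians of lists include them. The report also names Hsf1, the Scd paralogs, Fabp4, genes at 0 and marker genes, which were chosen after their values were seen. Positions are 1-based on GRCm38 from GENCODE M21, which held 22822 of the 23725 symbols. Python 3.11.15, numpy 2.4.6, pandas 2.3.3, scipy 1.17.1, matplotlib 3.10.9, R 4.3.3 and, for normalization factors, edgeR 4.0.16 were used.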

Additional observations from a re-analysis of the deposited data

How the results depend on the processing

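Under other library totals, scaling factors, cell weights and subsets of cells, all but 3 of the members' log2 ratios stayed within their counting interval. The exceptions were Dgat1 in cells with a Foxp3 UMI alone (5.35 and 5.21) and Fabp5 in VAT library 2 without cells holding another cell type's UMI (2.87). Within their intervals but by over 1.5-fold, that setting also moved Plin2 (3.41 in VAT library 2 and 3.05 in VAT library 3) and, in VAT library 3, Fabp5 (2.16) and Pparg (4.95). In VAT library 2 Pparg was 4.57 under that setting. Leaving out only cells with a defining marker of another cell type, Pparg was 3.85 and 3.82, against 4.35 and 4.28 in all cells. These filters moved Pparg in opposite directions. Pparg was 5.11 in VAT library 3 in cells with a Foxp3 UMI, and 6.55 and 6.404 without its highest cell in each library, which left spleen at 0. Dgat2 in VAT library 3, whose interval includes no change, was -0.04 in the cells without another cell type's UMI, and no other ratio changed sign. The share of all genes tested that were higher and lower in VAT was 10.5% and 6.45% at 20 UMIs, 11.1% and 14.4% at 1 UMI, 11.3% and 3.23% at 100 UMIs, 17.9% and 12.8% at 1.5-fold, and 5.7% and 1.77% at 3-fold. The share lower was 7.4% with VAT library 2 alone, 8.82% with VAT library 3 alone and 7.12% without ribosomal protein genes in the totals, a scaling that shifted all log2 ratios by -0.22 and -0.19. Of the members 3 were higher and 0 lower at 100 UMIs, since fewer genes were then eligible. The Pparg share was 8.79% and 8.92% in VAT without thinning and 0% in spleen at 600 UMIs, where at 800 UMIs it came from 1 cell. The difference in other members between cells with and without a Pparg UMI in VAT library 2 was -23.04 points at 600 UMIs and -21.8 (-44.6 to 7.92) points in Foxp3 cells alone, where 11 cells with a Pparg UMI were left. The cause of these shifts was not tested. Totals without mitochondrial genome genes were not run, since the table lists none. No paired analysis was possible because no label ties the mice of a VAT library to those of the spleen library.

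Limits are the 2 to 51 spleen UMIs behind the members' ratios, the 29 and 28 cells with a Pparg UMI, and the lack of replicate spleen libraries. At medians of 1423 to 1611 UMIs a cell, a cell without a Pparg UMI may still express the gene.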
